A study of Homo sapiens with 11 samples.

Results

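The zinc finger genes described here are the genes with a numbered ZNF symbol whose exons all lie on chromosome 19, measured in the leukemia line MOLM-13, an established human myeloid line with a rearranged KMT2A gene. They were chosen by level: a gene was kept if its mean over the 11 libraries of the series was at least 1 CPM (counts scaled to a library total of 1000000). Of 38557 annotated genes, 258 had such a symbol and an exon on chromosome 19. For 9 of these the annotation also lists exons on another contig of the genome, which set them aside, and 73 of the other 249 lay under 1 CPM. This left 176 genes, the members, and all 176 passed the filter on low counts. The mean level was thus used to choose them, and no difference between groups was.

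Cells had been kept for 72 h in the solvent DMSO (4 libraries), in 1 µM MI-503 (4 libraries) or in both 100 nM PR-957 and 1 µM MI-503 (3 libraries, numbered 1, 2 and 4), called the combination here. MI-503 blocks Menin, a partner protein of KMT2A, and PR-957 blocks PSMB8, a catalytic subunit of the immunoproteasome. All groups are the same established line, and no library received PR-957 alone. The labels do not say that the libraries of a group came from separate cultures, so p-values measure the spread between these samples, which may be technical. The comparisons ask how MI-503 alters gene expression and what PR-957 adds to it.

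Most chromosome 19 zinc finger genes encode proteins with a row of C2H2 fingers, short loops in which a pair of cysteines and a pair of histidines hold a zinc ion and which together read a stretch of DNA. Many carry a KRAB domain at the other end, which recruits the scaffold protein TRIM28 and, through it, the histone methyltransferase SETDB1 and HP1 proteins. The family is known for silencing transposable elements, and it arose by repeated tandem duplication, so its genes stand in clusters.

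The libraries held from 18891243 to 41153974 counted fragments each. The fewest fragments on any member in any library were 13, and the median over members of their lowest library was 230.5, so the members were well counted. Markers of a myeloid leukemia (CD33, FLT3, MPO, LYZ, CSF1R, SPI1, CEBPA, HOXA9, MEIS1 and PTPRC) were present, 10 of 10 at 1 CPM or more. Their sum ran from 1699 to 1771 CPM in DMSO, from 2233 to 2338 in MI-503 and from 2453 to 4786 in the combination. Of the marker lists for other cells, 0 of 3 T cell, 0 of 3 red cell, 2 of 4 epithelial (KRT8 and KRT18) and 0 of 3 fibroblast genes reached 1 CPM. Defining markers of T cells (CD2), B cells (MS4A1), epithelium (EPCAM) and red cells (HBB) had at most 1 fragment over all libraries. The 3 combination libraries were less alike than the others: LYZ, a monocyte enzyme, ranged there around a mean of 1641 CPM with an SD of 968. Over all tested genes, combination replicate 1 differed from the other 2 by a median of 0.14 on the log2 scale (0.06 to 0.12 in every other library). Over the members the same value was 0.11 (0.06 to 0.10 elsewhere, the highest being combination replicate 4). Several counts of calls that rest on the combination are therefore also given without replicate 1.

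The coding sequence of a single finger shows the unit of which these genes are built. In ZNF555, the member with the largest rise after MI-503, a finger and its linker to the next were encoded by 81 bases at chr19:2852753-2852833 of hg38, on the plus strand, and the codons of the zinc-binding cysteines and histidines are in capitals.
ZNF555: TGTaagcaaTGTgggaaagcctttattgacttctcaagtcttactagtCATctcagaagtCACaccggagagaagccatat
How alike genes of a cluster can be is shown by ZNF417 and ZNF587, which both bind HERV-K proviruses. Their coding sequences in the GENCODE annotation had 1725 bases each and differed at 16 of them (99.1% identity), which changed 11 amino acids. The lines below give finger 9 of 12, the finger with the most differences, at chr19:57908802-57908882 on the minus strand for ZNF417 and at chr19:57859808-57859888 on the plus strand for ZNF587, with the 3 differing bases in capitals.
ZNF417: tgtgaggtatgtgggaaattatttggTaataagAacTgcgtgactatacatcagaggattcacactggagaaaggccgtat
ZNF587: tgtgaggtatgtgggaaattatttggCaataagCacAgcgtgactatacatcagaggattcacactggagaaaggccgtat
Fragments that mapped to several places had been left out of the counts, so reads from such stretches may be missing. Of the 100-base words in the exons of ZNF417, 16.6% recurred elsewhere on chromosome 19, the highest share of any member, and 13.5% did in ZNF587. The share was 5% or more in 11 members, and its median over members was 0%.

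Promoters were taken from RefSeq (GRCh38.p14, 250 bases before to 50 after a start), which held 196 promoters of 153 members. The letters CCGGAAG, the core recognized by ETS transcription factors, stood on either strand in 75 of them (38.3%), against 10.3% of all 35116 promoters of that table and 16.5% of the 15365 promoters of tested genes. The first base of a match lay a median of 18 bases before the start, and 68 of 79 matches began between 100 bases before and 50 after it. The letters TATAAA stood in 2.55% of the members' promoters, 11.5% of all and 6.68% of those of tested genes. Other letters searched were less frequent: AAGATGGC (YY1) and ACTACAA each stood in 6.63% of the members' promoters (4.67% and 3.31% of tested genes), and CACGTG, the E-box, in 6.12% (9.25%). The next lines show 67 bases around the match, in capitals, in 4 members whose level rose with PR-957 on top of MI-503, each along the gene's own strand. The stretches lie at chr19:57363384-57363450 (plus) for ZNF547, chr19:36666810-36666876 (minus) for ZNF461, chr19:44025281-44025347 (plus) for ZNF222 and chr19:8832333-8832399 (minus) for ZNF558.
ZNF547: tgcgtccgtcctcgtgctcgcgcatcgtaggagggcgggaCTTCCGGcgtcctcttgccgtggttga
ZNF461: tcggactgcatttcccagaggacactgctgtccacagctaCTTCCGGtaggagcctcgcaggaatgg
ZNF222: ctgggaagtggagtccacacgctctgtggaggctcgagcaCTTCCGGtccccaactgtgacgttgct
ZNF558: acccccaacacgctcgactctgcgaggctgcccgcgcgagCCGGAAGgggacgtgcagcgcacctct
The first 3 hold the letters of the opposite strand (CTTCCGG). A match describes the letters and is not shown to be a bound site. The 4 shown have both the letters and a rise. In ZNF442, ZNF235 and ZNF823, which also rose against MI-503, the first listed promoter lacked the letters. By that promoter, 28.8% of 66 members with the letters were higher in the combination than with MI-503 alone (edgeR adjusted p under 0.05). The share was 31.0% of 87 members without them and 23.6% of all genes tested.

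Chromosome 19 ZNF genes were present at low to moderate levels. The members' means ran from 1.03 to 104.3 CPM, with a median of 13 and a middle range of 5.55 to 22.3. Per kilobase of exon the highest mean levels over the 11 libraries were 27.1 CPM/kb in ZNF146 (a protein of fingers alone, with no KRAB domain), 21.0 in ZNF428, 20.2 in ZNF317, 17.2 in ZNF787 and 16.9 in ZNF581, against a median of 2.55 over members. Of these 5, ZNF317 alone held the KRAB letters searched for below. In ZNF428 and ZNF146, 23.9% and 35.7% of the exon bases overlap exons of another gene, where fragments had been left out. The members just inside the threshold were ZNF582 (1.03 CPM), ZNF331 (1.07) and ZNF793 (1.12), and the genes just outside were ZNF56 (0.989), ZNF665 (0.988) and ZNF844 (0.959).

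By position, with a gap of 500 kb closing a cluster, 164 members fell into 9 clusters and 12 were scattered. Cluster 4 (chr19:19668070-24129968), which flanks the centromere on the short arm, stood apart: 29 of its 39 ZNF rows were under 1 CPM, and 9 were members. ZNF91 and ZNF93, which are known to silence SVA and LINE-1 elements, lay there at 0.0148 and 0.0704 CPM, and ZNF208 had no fragment in any library. In the other 8 clusters, 64.7% to 100% of the rows were members. The members of cluster 4 were not low, with a median of 25.5 CPM, led by ZNF431 at 68.2 CPM and ZNF714 at 57.7 CPM. In clusters 1, 3, 6 and 7 the members with the highest mean were ZNF556 (21.1 CPM), ZNF791 (35.6 CPM), ZNF45 (24.5 CPM) and ZNF480 (46.7 CPM). ZNF556 was at 17.6, 23.4, 16.7 and 17.3 CPM in DMSO, 22.5, 26.0, 19.3 and 20.7 in MI-503 and 23.3, 24.3 and 20.8 in the combination. Cluster 8 (chr19:55476603-56671783) had the highest median per kilobase, 8.38 CPM/kb, and only 2 of its 11 members held the KRAB letters, against 31 of 32 members with a coding sequence in cluster 7 and 31 of 35 in cluster 9.

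**Figure D1:**
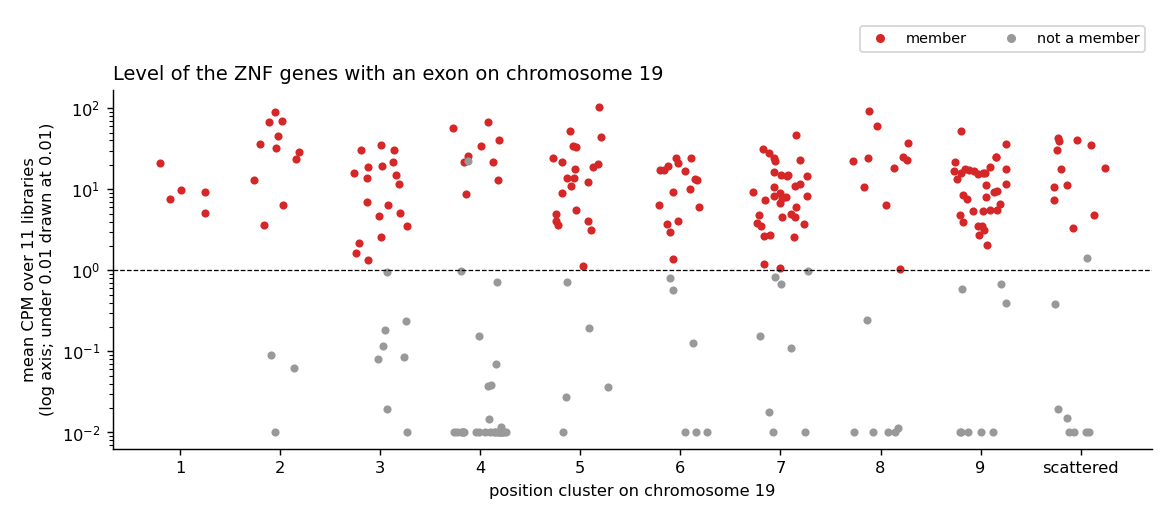
Mean level over the 11 libraries (CPM, log axis) of the 258 ZNF genes with an exon on chromosome 19, by position cluster; each point is a gene, members are red, the dashed line is the threshold of 1 CPM, and levels under 0.01 CPM are drawn at 0.01. Most genes of cluster 4 lie far under the line; gray points above the line (ZNF430 and ZNF780B) were set aside for exons on another contig.

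Taken over all members, levels shifted upward by a small amount, and the summed level was highest in the combination. The members' share of all counted fragments was 0.290% to 0.296% in the DMSO libraries, 0.301% to 0.315% in the MI-503 libraries and 0.332% to 0.348% in the combination, so no group overlapped another. ZNF genes of other chromosomes at 1 CPM or more were also highest in the combination. Their share was 0.651% to 0.671% in DMSO, 0.659% to 0.682% in MI-503 and 0.695% to 0.720% in the combination, and only the DMSO and MI-503 libraries overlapped. After TMM scaling, which equalizes libraries on the bulk of their genes, the summed level was 3029 ± 13 CPM over the 4 DMSO libraries (mean ± SD), 3082 ± 45.3 over the 4 MI-503 libraries and 3249 ± 43.9 over the 3 combination libraries, a ratio to DMSO of 1.02 and 1.07. On that scale the lowest MI-503 library and the highest DMSO library were both at 3039 CPM, while every combination library was above all others. The size of each step depended on the scaling. With TMM, the members' median log2 fold change was 0.06 for MI-503 against DMSO and 0.10 for the combination against MI-503. Over all genes tested these medians were -0.03 and 0.00. With other scalings the members' medians were 0.09 and 0.08 (RLE factors) and 0.12 and 0.11 (upper-quartile factors), in that order. In such bulk libraries a change in the RNA per cell and a change in the share of cells that express a gene cannot be told apart.

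In the comparison of the combination with DMSO, 77 of 176 members were higher (43.8%) and 22 lower (12.5%) at an edgeR adjusted p under 0.05. Over all 14683 genes tested, 31.7% were higher and 32.8% lower, so the members' share of rises was above that of all genes and their share of falls under it. The members' median log2 fold change was 0.15 (middle range -0.05 to 0.39), against 0.01 over all genes tested. Among 205 ZNF genes of other chromosomes at 1 CPM or more, 83 were higher (40.5%) and 48 lower (23.4%), with a median of 0.09. Among 717 other genes of chromosome 19, 276 were higher (38.5%) and 233 lower (32.5%), with a median of 0.04. The share of rises was thus above that of all genes in both of these sets too. The differences were modest in size. Only 3 of 176 members were called and changed more than 2-fold, all upward, against 1744 of 14683 genes tested. The compared libraries did not overlap in 93 members (52.8%; 60.5% of all genes tested). Without combination replicate 1, 75 members were higher and 17 lower.

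Fewer members were called with MI-503 alone. Against DMSO, 40 were higher (22.7%) and 22 lower (12.5%), where 22.0% of all genes tested were higher and 29.3% lower. The share of risen members was therefore close to the background, and the share of fallen members was under it. The median was 0.06, against -0.03 over all genes. This split depended on the scaling: 46 were higher and 15 lower with RLE factors and 56 and 9 with upper-quartile factors. It also depended on single libraries: 14 were lower without MI-503 replicate 2, combination replicate 1 or combination replicate 2, and the median ran from 0.04 without DMSO replicate 4 or MI-503 replicate 1 to 0.11 without combination replicate 1. No member reached 2-fold, and the range ran from -0.32 to 0.60. Of 14683 genes tested, 817 were called and changed more than 2-fold. Libraries did not overlap in 61 members (34.7%; 50.3% of all genes).

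With PR-957 added to MI-503, 51 members were higher (29.0%) and 13 lower (7.39%) than with MI-503 alone, where 23.6% of all genes tested were higher and 23.8% lower. The median was 0.10, against 0.00 over all genes (0.0041), and again no member reached 2-fold. Here 657 of 14683 genes tested were called and changed more than 2-fold. Libraries did not overlap in 75 members (42.6%; 47.6% of all genes). Without combination replicate 1, 38 were higher (21.6%) and 18 lower (10.2%), against 21.8% and 27.5% of all genes in that fit, so the share of rises was then no longer above the background. The all-gene median went to -0.03 there, and without combination replicate 2 the members' median was 0.04. The combination against DMSO and MI-503 against DMSO share the DMSO libraries, and the combination against MI-503 shares its libraries with both, so these counts are not independent of each other.

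**Figure D2:**
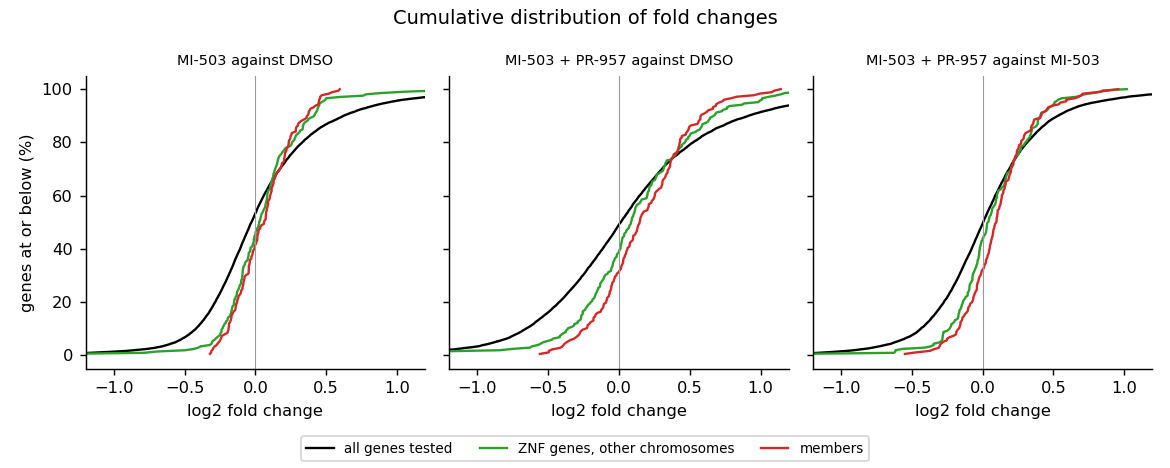
Cumulative share (%) of genes at or below each log2 fold change, for members (red), ZNF genes of other chromosomes (green) and all genes tested (black), 1 panel per comparison. The red curve starts further right than the black, at the members' largest falls of -0.32, -0.56 and -0.55 from left to right. It ends at 0.60, 1.14 and 0.96 in the same order.

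The largest rise was that of ZNF555, a KRAB zinc finger gene of cluster 1 at chr19:2841475-2860484 (plus strand). Its level was 6.08, 5.70, 6.21 and 5.98 CPM in the DMSO libraries, 9.21, 9.07, 9.79 and 8.19 in MI-503 and 13.5, 12.5 and 13.7 in the combination. No group overlapped another, and each step was upward. The log2 fold change was 0.60 (SE 0.08, adjusted p = 1.57e-05) for MI-503 against DMSO, 1.14 (SE 0.09, adjusted p = 4.25e-09) for the combination against DMSO and 0.55 (SE 0.08, adjusted p = 3.72e-05) for the combination against MI-503. Its neighbor ZNF554 (chr19:2819868-2836735) rose with MI-503 from 7.80, 7.90, 7.59 and 7.12 CPM to 9.58, 10.3, 12.2 and 9.78 CPM, by 0.46 on the log2 scale. In the combination ZNF554 was at 10.9, 11.8 and 11.5 CPM, where its difference from MI-503 alone was 0.12 (SE 0.09, adjusted p = 0.303).

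ZNF547, ZNF461 and ZNF442 had their rise where PR-957 was added. ZNF547 (chr19:57363435-57379559, plus strand, cluster 9) was at 2.33, 2.39, 2.23 and 2.33 CPM in DMSO, 2.55, 2.7, 2.68 and 2.25 in MI-503 and 5.50, 4.67 and 4.61 in the combination. The first 2 groups overlapped and the combination lay above both. Its log2 fold change was 0.14 (SE 0.13, adjusted p = 0.394) for MI-503, 1.10 (SE 0.13, adjusted p = 7.72e-07) for the combination against DMSO and 0.96 (SE 0.12, adjusted p = 7.98e-06) against MI-503. ZNF461 (chr19:36636618-36666837, minus strand, cluster 5) had 5.57, 6.75, 7.02 and 6.93 CPM in DMSO, 8.98, 7.56, 6.57 and 7.0 in MI-503 and 15.3, 14.5 and 11.5 in the combination. It showed the same order, with a wider spread in the combination, and rose 2.11-fold against DMSO (log2 fold change 1.08, SE 0.12, adjusted p = 6.79e-07). ZNF442 (chr19:12345944-12372636, minus strand, cluster 3), one of the lowest members, had 1.35, 1.15, 1.19 and 1.19 CPM in DMSO, 1.62, 1.42, 1.03 and 1.51 in MI-503 and 2.46, 2.41 and 2.46 in the combination. Its log2 fold change against MI-503 was 0.81 (SE 0.17, adjusted p = 0.000753).

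The same order was seen in ZNF222, ZNF235 and ZNF823. ZNF222 (chr19:44025324-44033110, cluster 6) was at 5.81, 5.19, 5.17 and 5.08 CPM in DMSO, 5.23, 5.06, 4.87 and 5.08 in MI-503 and 8.36, 7.63 and 8.71 in the combination. ZNF235, from the same cluster, had 2.87, 2.71, 2.89 and 2.56 CPM, 2.41, 2.12, 2.52 and 2.7 CPM and 4.08, 3.41 and 4.2 CPM in the same order. ZNF823 of cluster 3 had 4.22, 4.00, 3.32 and 4.84 CPM, 3.93, 4.36, 4.29 and 3.56 CPM and 7.30, 6.07 and 5.95 CPM. In all 3 the DMSO and MI-503 libraries overlapped and the combination lay above both. Their log2 fold changes against MI-503 were 0.71 (SE 0.09), 0.70 (SE 0.13) and 0.68 (SE 0.13).

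ZNF575 and ZNF846 rose in steps. ZNF575 (chr19:43531574-43536138, cluster 6) was at 2.09, 2.57, 3.51 and 2.51 CPM in DMSO, 3.56, 3.66, 3.88 and 4.05 in MI-503 and 4.67, 5.12 and 5.66 in the combination, and its log2 fold change against DMSO was 0.52 (SE 0.15) with MI-503 and 0.95 (SE 0.15) with the combination. ZNF846 (chr19:9751993-9786183, cluster 2) had 2.87, 1.98, 3.04 and 2.89 CPM, 3.84, 3.6, 3.67 and 2.91 CPM and 4.49, 4.92 and 5.10 CPM in those groups, and rose by 0.83 (SE 0.15) in the combination. The ZNF575 groups did not overlap, while 1 MI-503 library of ZNF846 lay within the DMSO values.

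Other members rose with MI-503, and their last step, from MI-503 to the combination, did not pass the test. ZNF230 (chr19:44002957-44013924, cluster 6) went from 13.6, 14.4, 13.3 and 13.8 CPM in DMSO to 19, 18.8, 19.4 and 18.1 in MI-503 and was at 18.3, 16.8 and 18.8 in the combination. Its log2 fold change was 0.45 (SE 0.06, adjusted p = 1.32e-05) for MI-503 against DMSO and -0.07 (SE 0.06, adjusted p = 0.434) for the combination against MI-503. ZNF577 (chr19:51804442-51887976, cluster 7) had 6.28, 5.97, 6.83 and 6.03 CPM in DMSO, 10.9, 8.52, 8.63 and 8.68 in MI-503 and 8.74, 8.33 and 8.48 in the combination, with a log2 fold change of 0.54 (SE 0.10, adjusted p = 0.000161) after MI-503. The first MI-503 library stood above the other 3. ZNF358 (chr19:7515286-7521025, outside the clusters) had 6.72, 8.50, 7.21 and 8.11 CPM in DMSO, 10.4, 12, 12.5 and 10.6 in MI-503 and 13.6, 14.4 and 11.6 in the combination. For ZNF358 the last step was 0.20 (SE 0.10, adjusted p = 0.107) and did not pass the test.

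**Figure D3:**
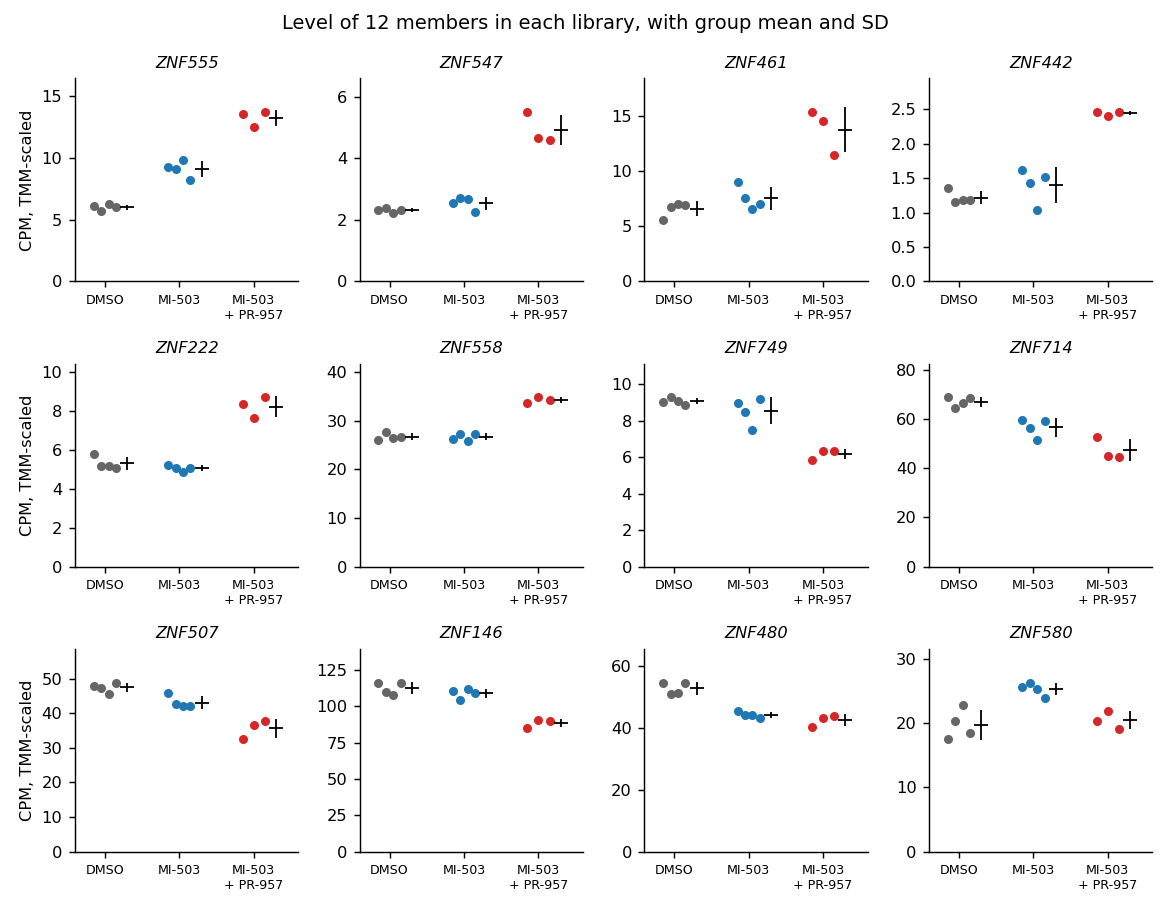
Level (TMM-scaled CPM, axis from 0) of 12 members in each of the 11 libraries; each dot is a library, and the black bar with its line gives the group mean and SD. ZNF555 rises in steps, ZNF547, ZNF461, ZNF442, ZNF222 and ZNF558 are high in the combination, and ZNF749, ZNF714, ZNF507 and ZNF146 are low there.

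Falls were fewer and smaller. ZNF749 (chr19:57428565-57447101, cluster 9) had 9.05, 9.28, 9.06 and 8.87 CPM in DMSO, 8.98, 8.49, 7.51 and 9.17 in MI-503 and 5.86, 6.32 and 6.36 in the combination. The DMSO and MI-503 libraries overlapped and the combination lay below both, with a log2 fold change of -0.09 (SE 0.08, adjusted p = 0.407) after MI-503 and -0.56 (SE 0.09, adjusted p = 4.99e-05) after the combination. ZNF714 (chr19:21082147-21125094, cluster 4) fell in both treated groups, from 68.8, 64.5, 66.6 and 68.4 CPM to 59.6, 56.5, 51.4 and 59.2 CPM and 52.8, 44.9 and 44.6 CPM, and its log2 fold change was -0.24 and -0.49 against DMSO. ZNF507 (chr19:32345610-32387667, scattered) had 47.9, 47.4, 45.6 and 48.9 CPM in DMSO, 45.8, 42.6, 42.0 and 42.0 in MI-503 and 32.6, 36.6 and 37.8 in the combination, where it was -0.28 (SE 0.06, adjusted p = 0.000823) against MI-503. ZNF114, ZNF614 and ZNF525 also fell in the combination, by 0.50, 0.47 and 0.40 on the log2 scale against DMSO.

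Among the most abundant members, ZNF146 fell with PR-957. It was at 116, 109.8, 108 and 116 CPM in DMSO, 110.4, 104, 112 and 109 in MI-503 and 85.3, 90.6 and 89.5 in the combination, -0.30 (SE 0.04, adjusted p = 3.7e-05) against MI-503. The first 2 groups overlapped and the combination lay below both. ZNF121 (chr19:9560337-9584544, cluster 2) had 71.9, 67.1, 67.5 and 68.0 CPM in DMSO, 75.7, 70.4, 71.3 and 77.8 in MI-503 and 60.2, 56.5 and 54.0 in the combination, -0.37 (SE 0.05, adjusted p = 1.78e-05) against MI-503. ZNF850 (chr19:36743478-36772814, cluster 5), which encodes 30 fingers, the most of any member, had 28.5, 24.6, 25.7 and 26.2 CPM, 27.8, 25.5, 23.5 and 27.1 CPM and 19.8, 20.4 and 21.1 CPM in the same order. ZNF317 and ZNF787, at a like level, did not pass the test in any comparison: ZNF317 was at 88.1 ± 6.38 CPM in DMSO, 87.9 ± 3.05 in MI-503 and 94.5 ± 1.86 in the combination (mean ± SD), and ZNF787 at 94.6 ± 1.59, 89.1 ± 3.39 and 91.2 ± 8.59 CPM.

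A few members moved one way with MI-503 and back with PR-957. ZNF580 (chr19:55641002-55643470, cluster 8) was at 17.6, 20.4, 22.8 and 18.4 CPM in DMSO, 25.6, 26.3, 25.4 and 24.0 in MI-503 and 20.4, 22.0 and 19.1 in the combination. It rose by 0.36 with MI-503 and the combination was -0.31 (SE 0.08, adjusted p = 0.00438) against MI-503, which left it 0.05 (SE 0.08, adjusted p = 0.609) from DMSO. ZNF428 of cluster 6 did likewise, at 23.0 ± 0.763, 27.4 ± 1.87 and 22.3 ± 1.93 CPM. In the opposite sense ZNF888 (chr19:52904790-52929161, cluster 7) fell from 16.2, 14.9, 15.4 and 17.8 CPM to 12.5, 14.2, 12.6 and 12.4 CPM with MI-503 and was at 16, 15.1 and 14.9 CPM in the combination, 0.24 (SE 0.08, adjusted p = 0.0183) against MI-503. ZNF468 and ZNF611, of the same cluster as ZNF888 but not adjacent to it, had log2 fold changes of -0.31 and -0.29 after MI-503. Both were called lower, as were ZNF576 (-0.30) and ZNF429 (-0.27).

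Changes differed somewhat with position. All 5 members of cluster 1 (chr19:2819868-2944971) had fitted values above 0 against DMSO in both treatments, and 3 were called higher in the combination. In cluster 6 (chr19:43531574-44500522), 11 of 17 members were higher in the combination and 3 lower, with a median log2 fold change of 0.39, the highest of the 9 clusters (10 higher and 1 lower, median 0.41, without combination replicate 1). Cluster 2 (chr19:8509678-9786183) had 7 higher and 1 lower of 11, with a median of 0.35 (0.39 without that library). Cluster 4 had the lowest median, -0.12, with 1 of 9 members higher and 4 lower (1 and 5, median -0.19, without it). The large clusters 7 and 9 had 13 higher and 4 lower each of 35 (37.1% and 11.4%, beside 31.7% and 32.8% of all genes tested), so their share of rises was near the background, with medians of 0.13 (0.12 and 0.12 without that library). No cluster was tested as a group.

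Within clusters, some members with opposite changes were neighbors or lay near each other. In cluster 4, ZNF431 rose from 61.3, 60.1, 64.1 and 60.9 CPM in DMSO to 78.0, 80.6 and 76.0 CPM in the combination (log2 fold change 0.34, SE 0.05, adjusted p = 5.84e-06), next to ZNF714, which fell. In cluster 6, ZNF576 fell by 0.29 beside ZNF575, which rose by 0.95. In cluster 9, ZNF547 and ZNF749, the members with the largest rise and the largest fall of that cluster, have ZNF548 and ZNF17 between them. Over 155 pairs of adjacent members of a cluster, the median absolute difference between their log2 fold changes in the combination against DMSO was 0.27, against 0.30 over 1884 pairs within a cluster and 0.32 over 13450 pairs from different clusters. The median Pearson correlation of log2 CPM over the 11 libraries was 0.25, 0.13 and 0.10 for these kinds of pair. All pairs share the same libraries, so these are descriptions.

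The 3 pairs most alike over the 11 libraries came from different clusters: ZNF426 with ZNF304 (r = 0.98), ZNF442 with ZNF701 (r = 0.98) and ZNF461 with ZNF304 (r = 0.97). ZNF304 was at 15.3, 16.4, 16.3 and 16.4 CPM in DMSO, 17.5, 16.6, 16.5 and 16.7 in MI-503 and 20.6, 20.9 and 20.5 in the combination, and ZNF426 at 20.6, 20.7, 21.7 and 21.8 CPM, 23.1, 22.3, 22.4 and 22.4 CPM and 27.3, 27.5 and 27.8 CPM. Both were highest in the combination, with groups that did not overlap.

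**Figure D4:**
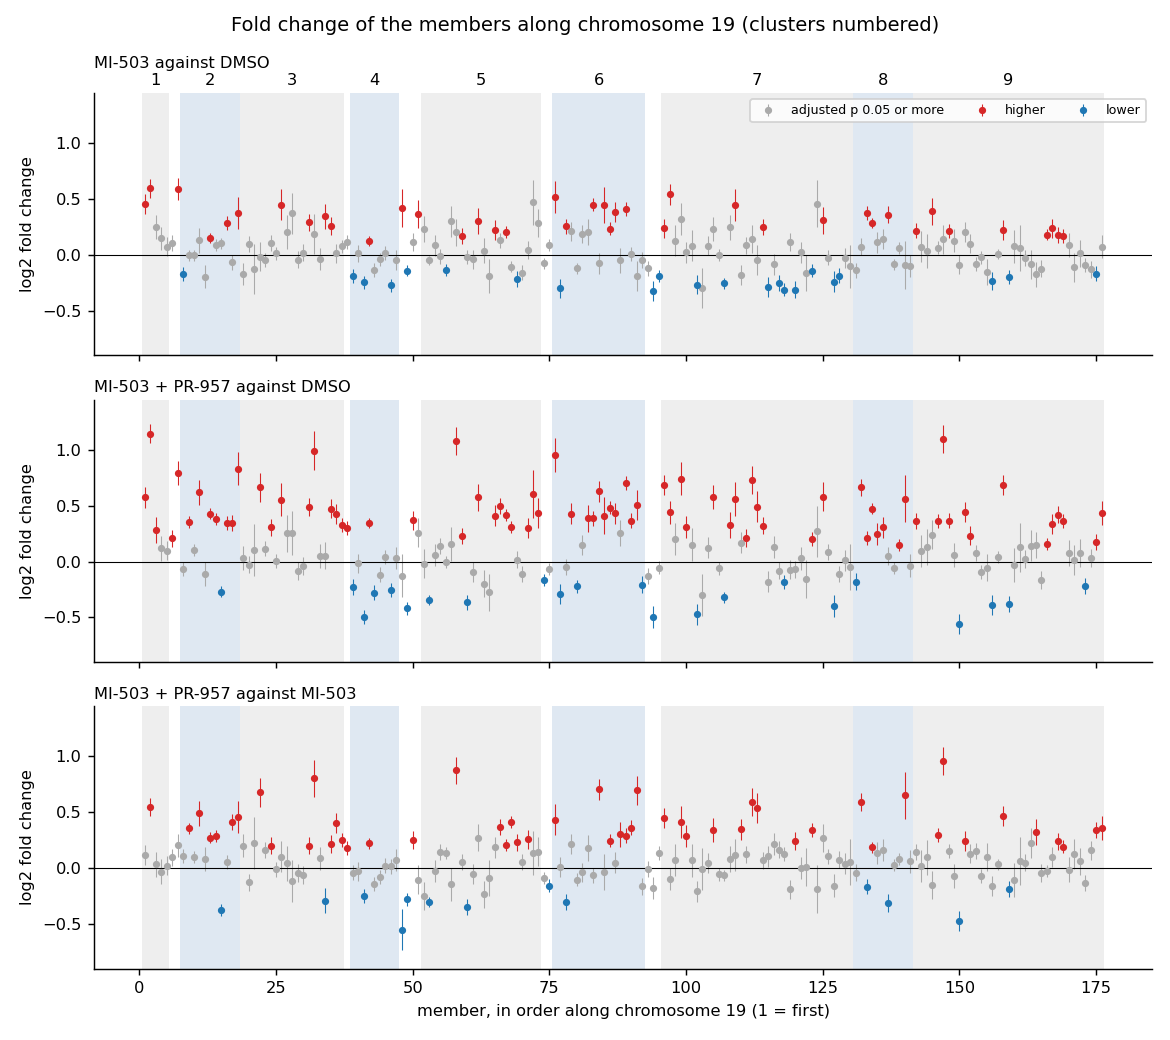
Log2 fold change (vertical axis, bars are SE) of the 176 members in order along chromosome 19 (horizontal axis), 1 panel per comparison; shaded bands are the numbered clusters, red members are higher and blue lower at an adjusted p under 0.05. Rises occur in every cluster of the middle panel, and in cluster 4 only ZNF431 is red there.

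Members with a studied role were described from a list. ZNF417 and ZNF587, whose products bind HERV-K proviruses, rose in the combination. ZNF417 had 13.4, 14.2, 15.6 and 13.2 CPM in DMSO, 16.5, 16.7, 15.2 and 15.3 in MI-503 and 20.2, 18.3 and 17.9 in the combination, where it was 0.42 (SE 0.08, adjusted p = 0.000123) against DMSO. ZNF587 had 47.6, 46.2, 51.8 and 45.4 CPM, 52.5, 54.8, 52.2 and 57.1 CPM and 54.1, 55.0 and 51.1 CPM, and its change was 0.16 (SE 0.05, adjusted p = 0.0162). The ZNF587 call in the combination was lost without DMSO replicate 4 (adjusted p = 0.0533) and without combination replicate 2 (adjusted p = 0.0624).

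ZNF274, a KRAB protein that binds the 3′ ends of zinc finger genes and brings SETDB1 to them, was at 19.4, 18.5, 18.7 and 19.98 CPM in DMSO, 20.9, 22.2, 21.9 and 21.1 in MI-503 and 22.8, 25.5 and 25.9 in the combination. The groups did not overlap, and the combination was 0.36 (SE 0.06, adjusted p = 7.7e-05) against DMSO. ZNF224, a repressor that partners with WT1, was at 17.7, 18.8, 18 and 17.0 CPM, 21.0, 21.5, 21.1 and 20.4 CPM and 24.1, 25.6 and 25.4 CPM, also in 3 separate ranges, with 0.48 (SE 0.06, adjusted p = 1.55e-06) against DMSO. In ZNF224, 33.0% of the exon bases are shared with another gene, LOC100379224. ZNF558, a repressor of the mitophagy gene SPATA18, had 26.0, 27.8, 26.6 and 26.8 CPM in DMSO, 26.2, 27.2, 25.9 and 27.4 in MI-503 and 33.7, 34.8 and 34.2 in the combination. It was flat between the first 2 groups and rose by 0.36 (SE 0.05, adjusted p = 2.19e-05) with PR-957. ZNF350, a BRCA1 partner that represses GADD45A, went from 6.23 ± 0.383 CPM to 7.79 ± 0.493 CPM in the combination (mean ± SD, n = 4 and 3), a log2 fold change of 0.31 (SE 0.10, adjusted p = 0.00913).

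ZNF473, which takes part in the processing of histone messenger RNA, fell with MI-503 from 31.9, 32.3, 31.8 and 33.6 CPM to 26.4, 30.4, 29.8 and 26.9 CPM (log2 fold change -0.19, SE 0.05, adjusted p = 0.00784) and was at 31.2, 31.4 and 31.1 CPM in the combination. The fall missed the threshold with upper-quartile factors (adjusted p = 0.0589). ZNF444, a SCAN domain protein, was 0.14 (SE 0.05, adjusted p = 0.0259) in the combination against DMSO, a call that was lost without DMSO replicate 1 (adjusted p = 0.0664), DMSO replicate 4 (adjusted p = 0.0798) or combination replicate 2 (adjusted p = 0.0611). ZNF611, which binds SVA elements, was called lower with MI-503, and its difference from DMSO in the combination was -0.18 (SE 0.09, adjusted p = 0.105). ZNF649, ZNF331, ZNF675, ZNF382 and ZNF568 did not pass the test in any comparison. ZNF382 passed for MI-503 against DMSO when MI-503 replicate 3 (adjusted p = 0.0413), combination replicate 1 (adjusted p = 0.0347) or combination replicate 4 (adjusted p = 0.0406) was left out, and also with the compared groups alone (adjusted p = 0.0312) and with upper-quartile factors (adjusted p = 0.0463). ZNF675, which inhibits TRAF6 signaling, was at 8.79 ± 1.09 CPM in DMSO, 8.53 ± 0.447 in MI-503 and 8.95 ± 0.280 in the combination. ZNF568, whose mouse counterpart silences a placental Igf2 transcript, was at 4.47 ± 0.817, 3.90 ± 0.658 and 3.65 ± 0.419 CPM.

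Sequence features of the members were set beside their changes. In the longest GENCODE coding sequence, found for 171 members, the median number of C2H2 fingers was 12 (range 1 to 30). A pattern of KRAB A box letters was found in 138 members and not in 33, and some of these 33, such as ZNF473 and ZNF180, are known KRAB genes that the pattern missed. In the combination against DMSO, 63 of the 138 were higher (45.7%) and 14 lower (10.1%), with a median of 0.17. Of the 33, 12 were higher (36.4%) and 8 lower (24.2%), with a median of 0.03. Over all genes tested, 31.7% were higher and 32.8% lower. Without combination replicate 1, 62 of the 138 were higher (44.9%) and 13 lower (9.42%) against DMSO. Of the 33, 11 were then higher (33.3%) and 4 lower (12.1%), so the 2 shares of falls were closer. Against MI-503, 45 of the 138 were higher (32.6%) and 4 lower, and 5 and 9 of the 33, where 23.6% of all genes were higher. Without combination replicate 1, the 138 had 32 higher (23.2%) and 9 lower against MI-503, with 21.8% of all genes higher in that fit, so the share of rises was then near the background. Members with under 10 fingers and with 10 or more had medians of 0.14 and 0.15 against DMSO. Where a member had several promoters, only the first listed was used to split by CCGGAAG. The 66 members that held it there and the 87 that lacked it had medians of 0.15 and 0.15. The lower 88 members by mean level had a median of 0.22 against DMSO, with 39 higher (44.3%) and 5 lower (5.68%). The upper 88 had a median of 0.07, with 38 higher (43.2%) and 17 lower (19.3%). Whether level and KRAB letters go together among the members was not tested, and neither were their shares in the change.

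Most partners of KRAB proteins were lower after treatment. Of 24 genes of the repression machinery on the list, 23 were tested. In the combination against DMSO 17 were lower and 0 higher (edgeR, 17 in either direction at an unadjusted p under 0.05, and 17 lower and 0 higher with DESeq2), with a median of -0.38. With MI-503 alone 15 were lower and 1 higher (11 and 1 with DESeq2), with a median of -0.16, and the combination against MI-503 had 13 lower and 1 higher (median -0.18). Without combination replicate 1, 18 were lower and 1 higher against DMSO. In the combination against DMSO, 73.9% of the 23 were lower, against 32.8% of all genes tested. The shares were 65.2% and 29.3% with MI-503 alone, and 56.5% and 23.8% in the combination against MI-503. In the combination against DMSO the median SE was 0.05 over the 23 and 0.08 over all genes tested, so a like change was more readily called in the 23.

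TRIM28, the scaffold that KRAB domains bind, was at 880.5 ± 31.8 CPM in DMSO, 736 ± 31.1 in MI-503 and 650.0 ± 51.1 in the combination (mean ± SD), -0.44 (SE 0.05, adjusted p = 2.04e-06) against DMSO. The HP1 genes CBX1, CBX3 and CBX5 fell by 0.53, 0.74 and 0.63 in the combination, and of these CBX3 also fell with MI-503 (log2 fold change -0.28). SETDB1, the methyltransferase, was at 138 ± 5.65, 139.8 ± 3.45 and 137 ± 5.98 CPM and did not pass the test in any comparison, with a log2 fold change of -0.02 (SE 0.05, adjusted p = 0.762) in the combination against DMSO. Its cofactor ATF7IP fell by 0.22 with MI-503 and by 0.20 in the combination. DNMT1, the maintenance DNA methyltransferase, and UHRF1, which guides it to DNA, fell by 0.73 and 0.77 in the combination. The deacetylase genes HDAC1 and HDAC2 fell by 0.44 and 0.53. Of the HUSH complex, TASOR fell by 0.31, PPHLN1 by 0.15 and MPHOSPH8 was 0.08 (SE 0.04, adjusted p = 0.126). CHD3, a NuRD remodeler, rose with MI-503 (log2 fold change 0.27, SE 0.06, adjusted p = 0.000784) and was -0.19 (SE 0.06, adjusted p = 0.0171) in the combination against MI-503. DAXX and the untested EHMT2 are annotated on 5 and 7 contigs, where fragments with several matches had been left out.

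**Figure D5:**
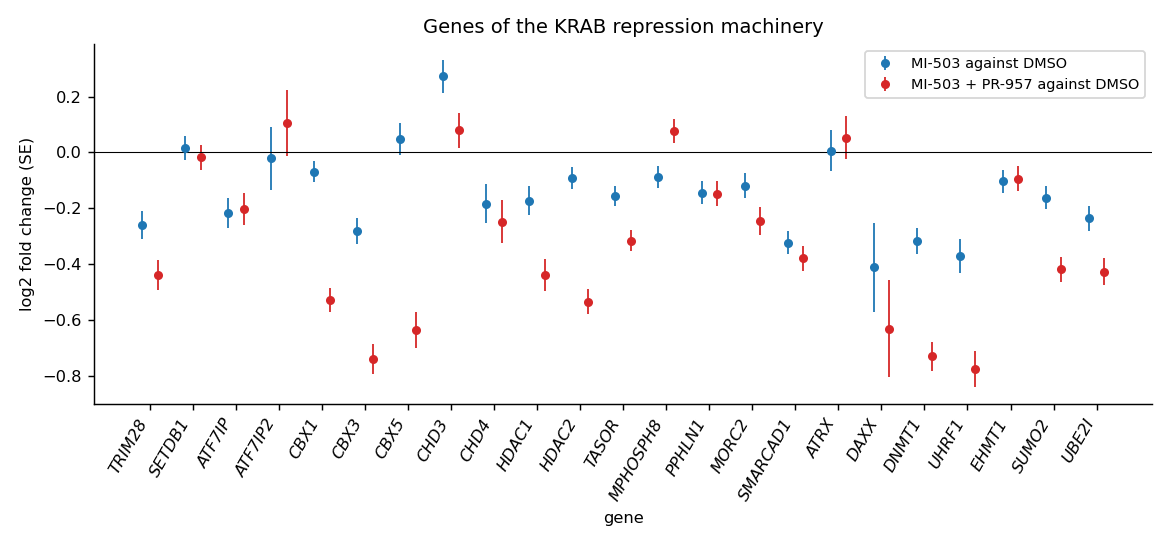
Log2 fold change against DMSO (vertical axis, lines are SE) of the 23 tested genes of the KRAB repression machinery, blue for MI-503 and red for the combination. Most points lie under 0, and CBX3, DNMT1 and UHRF1 are lowest in the combination.

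The members' rises and falls named here as the largest of a comparison, 36 pairs of member and comparison, kept their direction and their call in all 18 alternative fits run on each. They had been chosen from the same counts as the largest calls without overlap, and that choice favors this outcome.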

How the data were processed

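Paired reads of 11 MOLM-13 RNA libraries (TruSeq kit, NovaSeq) underlie the counts. Per the file headers, the authors counted fragments on exons of the RefSeq annotation of hg38 with featureCounts 2.0.1, without regard to strand (so that antisense partners cannot be told apart), and left out fragments with several matches or several genes. The deposited values are raw counts, 1 column per library. Per the submitters' processing notes, reads were trimmed with Trimmomatic 0.39 and aligned with STAR 2.7.10a, and the headers show that alignments were filtered (rule: not given in the sources used here). Apart from these, the authors deposited tables of their own comparisons (log2 fold changes, test statistics and p-values), which were not used.

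Groups came from the labels. Counts were fitted in R 4.3.3 with edgeR 4.0.16: filterByExpr (minimum count 10, 14683 of 38557 genes kept), TMM scaling, 1 model with a mean per group over the 11 libraries, and the two-sided quasi-likelihood test. P-values were Benjamini-Hochberg adjusted over all genes tested, and called, higher and lower refer to an adjusted p under 0.05. The SE was derived from the fold change and its F statistic. CPM in the text are TMM-scaled, and the rule of 1 CPM used unscaled counts. Alternatives were RLE and upper-quartile factors, no filter, a minimum count of 50, DESeq2 1.42.0, the compared groups alone, the replicate number as a block, a threshold of 0.01, members at 2 CPM or more, members sharing under 10% of exon bases, and leaving out each library.

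Coding sequences were built from GENCODE on hg38, promoters were RefSeq's and matched hg38 in 196 of 196 cases. Members, lists and the naming rule were chosen with earlier results of these data known. Named members were, per comparison, the 6 largest rises and falls among called members without overlap between groups, the 5 highest per kilobase, those nearest the threshold, the highest of each cluster, and a list by role. The pattern pairs were the 3 with the highest correlation. ZNF208, ZNF180, ZNF548 and ZNF17 were named after their values were seen. The count for 1 marker list is not reported here. With 18891243 to 41153974 fragments per library, depth left a median SE of 0.08 to 0.09 on the members' log2 fold changes.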

Additional observations from a re-analysis of the deposited data

Results flagged for a closer look

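In groups of 4 libraries, a library is given here when its gap to the nearest other exceeded 0.829 of the group's range. This was met in 6 of 106 groups examined, over 52 named members and their summed level, and chance gives about 1 in 20. ZNF577 was at 10.9 CPM in MI-503 replicate 1, against 8.52 to 8.68 in the others. ZNF888 was at 14.2 CPM in MI-503 replicate 2, against 12.4 to 12.6. ZNF45 was at 25.4 CPM in MI-503 replicate 3, against 23.7 to 24.0. Among the DMSO libraries, ZNF846 was at 1.98 CPM in replicate 2, against 2.87 to 3.04, and ZNF556 at 23.4 CPM in replicate 2, against 16.7 to 17.6. ZNF222 was at 5.81 CPM in DMSO replicate 1, against 5.08 to 5.19. The rises of ZNF577, ZNF846 and ZNF222 named above passed the test without each of these libraries.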

How the results depend on the processing

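Counts of called members for the combination against DMSO stayed within 1.5 times under every alternative, and their median log2 fold change moved beyond the spread between libraries only with upper-quartile factors, to 0.22. For MI-503 against DMSO, with 40 higher and 22 lower, upper-quartile factors gave 9 lower and a median of 0.12, the compared groups alone gave 62 higher and a median of 0.11, DESeq2 and the fit without a filter gave 14 lower each, and a threshold of 0.01 left 18 higher and 9 lower. For the combination against MI-503 that threshold left 32 higher and 8 lower. Leaving out 1 library gave, for MI-503 against DMSO, 30 to 59 higher, 14 to 21 lower and medians from 0.0383 to 0.109, for the combination against DMSO 69 to 77 higher, 17 to 22 lower and medians from 0.14 to 0.17, and for the combination against MI-503 38 to 51 higher, 9 to 18 lower and medians from 0.04285 to 0.106. Without combination replicate 1, 2 or 4 the median for MI-503 against DMSO was 0.11, 0.10 and 0.10, although those libraries enter that comparison only through the scaling and the shared spread. Labels number the libraries alike across groups, and deviations of same-numbered libraries from their group means correlated by -0.10 to 0.14. The labels do not say whether libraries of the same number were handled together, and these correlations cannot decide it. With the replicate number as a block, 41 members were higher and 21 lower for MI-503 against DMSO, 72 and 21 for the combination against DMSO, and 49 and 11 for the combination against MI-503, and no count moved by over 1.5 times. The cause of these shifts was not tested.

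The 36 largest rises and falls, chosen from these same counts, kept their direction and call in all 18 alternative fits of each. Among 43 pairs of the role list, fitted values near 0 changed sign, none of them called. ZNF558 for MI-503 against DMSO was 0.0262 with DESeq2, 0.0252 with RLE factors, 0.0471 in the compared groups, 0.0176 without a filter, 0.0239 with the stricter filter and 0.0601 with upper-quartile factors. In the same comparison ZNF146 was 8.66e-06 in the compared groups and 0.0151 with upper-quartile factors, and ZNF675 0.000161 and 0.0165. For the combination against DMSO, upper-quartile factors gave ZNF473 0.0155 and ZNF331 0.0220. Without 1 library each, ranges across 0 were, for MI-503 against DMSO, -0.0167 to 0.0440 in ZNF558, -0.0218 to 0.0688 in ZNF350 and -0.112 to 0.0258 in ZNF675, for the combination against DMSO -0.166 to 0.0826 in ZNF331 and -0.0358 to 0.101 in ZNF675, and for the combination against MI-503 -0.145 to 0.121 in ZNF649, -0.0792 to 0.0059 in ZNF587, -0.102 to 0.141 in ZNF331 and -0.233 to 0.0236 in ZNF568. Depth limits the low members most: in the combination against DMSO the median SE was 0.12 over the lower 88 members by level and 0.07 over the upper 88.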

Other observations

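Of the 9 zinc finger genes set aside because the annotation also places them on another contig, 7 were under 1 CPM. ZNF430, a neighbor of ZNF714 and ZNF431 in cluster 4, was at 22.0 ± 1.58 CPM over the 4 DMSO libraries (mean ± SD), 21.8 ± 1.33 over the 4 MI-503 libraries and 22.3 ± 0.783 over the 3 combination libraries. Its log2 fold change was -0.02 (SE 0.07) for MI-503 against DMSO and 0.02 (SE 0.07) for the combination against DMSO, and neither passed the test (edgeR adjusted p = 0.868 and 0.822). ZNF780B was at 1.35 ± 0.147, 1.43 ± 0.260 and 1.53 ± 0.397 CPM in the 3 groups. Fragments with several matches had been left out of the counts, and their part in these low levels was not tested.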
